A study of Homo sapiens with 238 samples.

Results

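A set of 9 genes of iron uptake, iron storage, iron export and heme breakdown were followed in RNA-seq libraries of edited and unedited K562 cells, a human erythroleukemia line. The set comprised TFRC, STEAP3, SLC11A2, SLC25A37, FTH1, FTL, SLC40A1, HMOX1 and BLVRB, chosen by symbol from 62696 counted genes, and each symbol matched 1 gene identifier. The 62 libraries formed 2 series. In the α series (43 libraries), αMut1 (n = 7) and αMut2 (n = 4) carried homozygous base substitutions in the G-quadruplex (G4) motif of HS-40, the distal enhancer of the α-globin genes. Rescue clones were made from αMut1 by placing the G4 of the MYC gene in HS-40, with 8 libraries each of αRes1 and αRes2 and 4 each of αRes3 and αRes4, and unedited αWT cells (n = 8) were the control. In the β series (19 libraries), βMut1 (n = 4) and βMut2 (n = 4) carried substitutions in the G4 motif of HS2, an enhancer of the β-globin locus control region. βMut-HS3Δ (n = 3) had the neighbouring enhancer HS3 deleted in βMut1 cells, WT-HS3Δ (n = 4) had HS3 deleted with an intact HS2 G4, and βWT (n = 4) was unedited. The methods describe growing edited lines from single cells sorted by GFP, without separate detail for the lines with HS3 deleted. An edit and the clone that carries it cannot be told apart within 1 line. All lines shared the same serum-containing medium and no treatment was given.

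Developing red cells take up iron bound to transferrin through the transferrin receptor, reduce it in the endosome, pass it to the cytosol and carry it into mitochondria, where it is built into heme. Iron not used is stored inside ferritin shells of heavy and light chains or leaves the cell through ferroportin, and heme is opened by heme oxygenase to biliverdin, which biliverdin reductases turn into bilirubin. When iron is scarce, iron regulatory proteins bind hairpins called iron-responsive elements: in a 3′ UTR they protect the transcript, and in a 5′ UTR they block its translation, so that RNA abundance reports on the protein of the second kind only in part.

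The libraries held 4270215 to 48671570 gene counts, with a median of 27764236. A subset of 16, numbers 5 to 8 of αRes1 and αRes2 and all of αRes3 and αRes4, had 7225 to 28878 counts on pseudoautosomal genes, while the other 46 had 0 to 1. The labels do not say why, and a difference in reference or counting was not tested. In comparisons of αRes3 or αRes4 with αMut1 or αWT the line and this difference cannot be told apart. The same holds for every comparison of αRes1 or αRes2 with αMut1 or αWT over numbers 5 to 8 alone. Comparisons over all libraries of αRes1 or αRes2 include this difference in part. All 6 erythroid markers examined (GATA1, KLF1, TAL1, HBG1, HBG2, EPOR) were present in every line, and their summed level lay between 813 CPM (counts scaled to a common library size by TMM factors) in an αMut2 library and 1887 CPM in an αRes4 library. Of 7 monocyte and macrophage markers, 1 to 3 reached a mean of 1 CPM in a line, the sum being mostly LYZ (4.69 to 199 CPM), while CD163 and MARCO were at 0 in most lines and CD14 stayed between 0.10 and 0.46 CPM. The edits lie outside these transcripts, so RNA cannot check them directly. HBA1, an α-globin target of HS-40, averaged 138 CPM in αMut1 and 44.5 CPM in αMut2, against 168 CPM in αWT, and HBE1, the embryonic β-like globin next to HS2, averaged 71.0 CPM in βMut1, 44.5 CPM in βMut2, 4.68 CPM in βMut-HS3Δ and 12.1 CPM in WT-HS3Δ, against 51.3 CPM in βWT.

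Of the 9 genes, 4 carried a sequence matching the iron-responsive element in the untranslated parts of their canonical transcript (GENCODE 44, hg38). The sites show where in the transcript each match lies. Other transcripts of a gene and hairpins with broken pairing were not searched, so the matches do not sort the genes by kind of control. The pattern was a bulged C, 5 bases, the loop CAGTGN, and 5 bases able to pair with the first 5 (G to U pairs allowed), read on the transcript strand. Capitals mark the bulged C and the loop. Transferrin receptor mRNA held 4 such hairpins in its 3′ UTR.
TFRC, chr3:196050980-196051006, minus strand, 3′ UTR: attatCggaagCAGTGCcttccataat
TFRC, chr3:196050576-196050602, minus strand, 3′ UTR: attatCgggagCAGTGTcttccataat
TFRC, chr3:196050511-196050537, minus strand, 3′ UTR: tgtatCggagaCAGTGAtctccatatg
TFRC, chr3:196050464-196050490, minus strand, 3′ UTR: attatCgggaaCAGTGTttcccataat
FTH1, chr11:61967575-61967601, minus strand, 5′ UTR: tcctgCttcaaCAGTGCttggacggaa
FTL, chr19:48965336-48965362, plus strand, 5′ UTR: tcttgCttcaaCAGTGTttggacggaa
SLC40A1, chr2:189580662-189580688, minus strand, 5′ UTR: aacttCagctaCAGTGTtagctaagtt

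The 2 ferritin hairpins had the same letters between the bulged C and the loop and after the loop. The 4 TFRC hairpins all differed from one another between the bulged C and the loop. After the loop, the first 2 TFRC hairpins shown had the same letters. A match was rare, at 0.0977% of 19441 canonical 5′ UTRs and 0.624% of 19550 canonical 3′ UTRs. Among UTRs of similar length, 0.7% matched for the 2658-base 3′ UTR of TFRC, 0.119% for the 209-base 5′ UTR of FTH1, 0.089% for the 199-base 5′ UTR of FTL and 0.081% for the 326-base 5′ UTR of SLC40A1. The canonical transcripts of STEAP3, SLC11A2, SLC25A37, HMOX1 and BLVRB held no match, which says only that these letters are not in those UTRs.

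Per kilobase of canonical transcript, RNA of the ferritin gene FTL was the most abundant of the set in every line. FTL, the light chain, reached line means of 1082 to 1506 CPM per kb and FTH1, the heavy chain with the ferroxidase site, 476 to 851 CPM per kb. BLVRB had 255 to 731 CPM per kb, SLC25A37 30.0 to 324 CPM per kb and TFRC 89.99 to 251 CPM per kb. In βMut2, BLVRB (578 CPM per kb) exceeded FTH1 (556 CPM per kb). The exporter SLC40A1 lay at 18.6 to 35.6 CPM per kb, STEAP3 at 6.37 to 25.9 CPM per kb and SLC11A2 at 12.6 to 16.6 CPM per kb, while HMOX1 stayed between 0 and 0.151 CPM per kb. Spread across lines was very unequal. The highest line mean was 10.8 times the lowest for SLC25A37, 4.07 times for STEAP3, 2.87 times for BLVRB and 2.79 times for TFRC, but 1.92 times for SLC40A1, 1.79 times for FTH1, 1.39 times for FTL and 1.31 times for SLC11A2. These spreads across the 2 series are descriptions of levels on 1 common scaling.

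**Figure D1:**
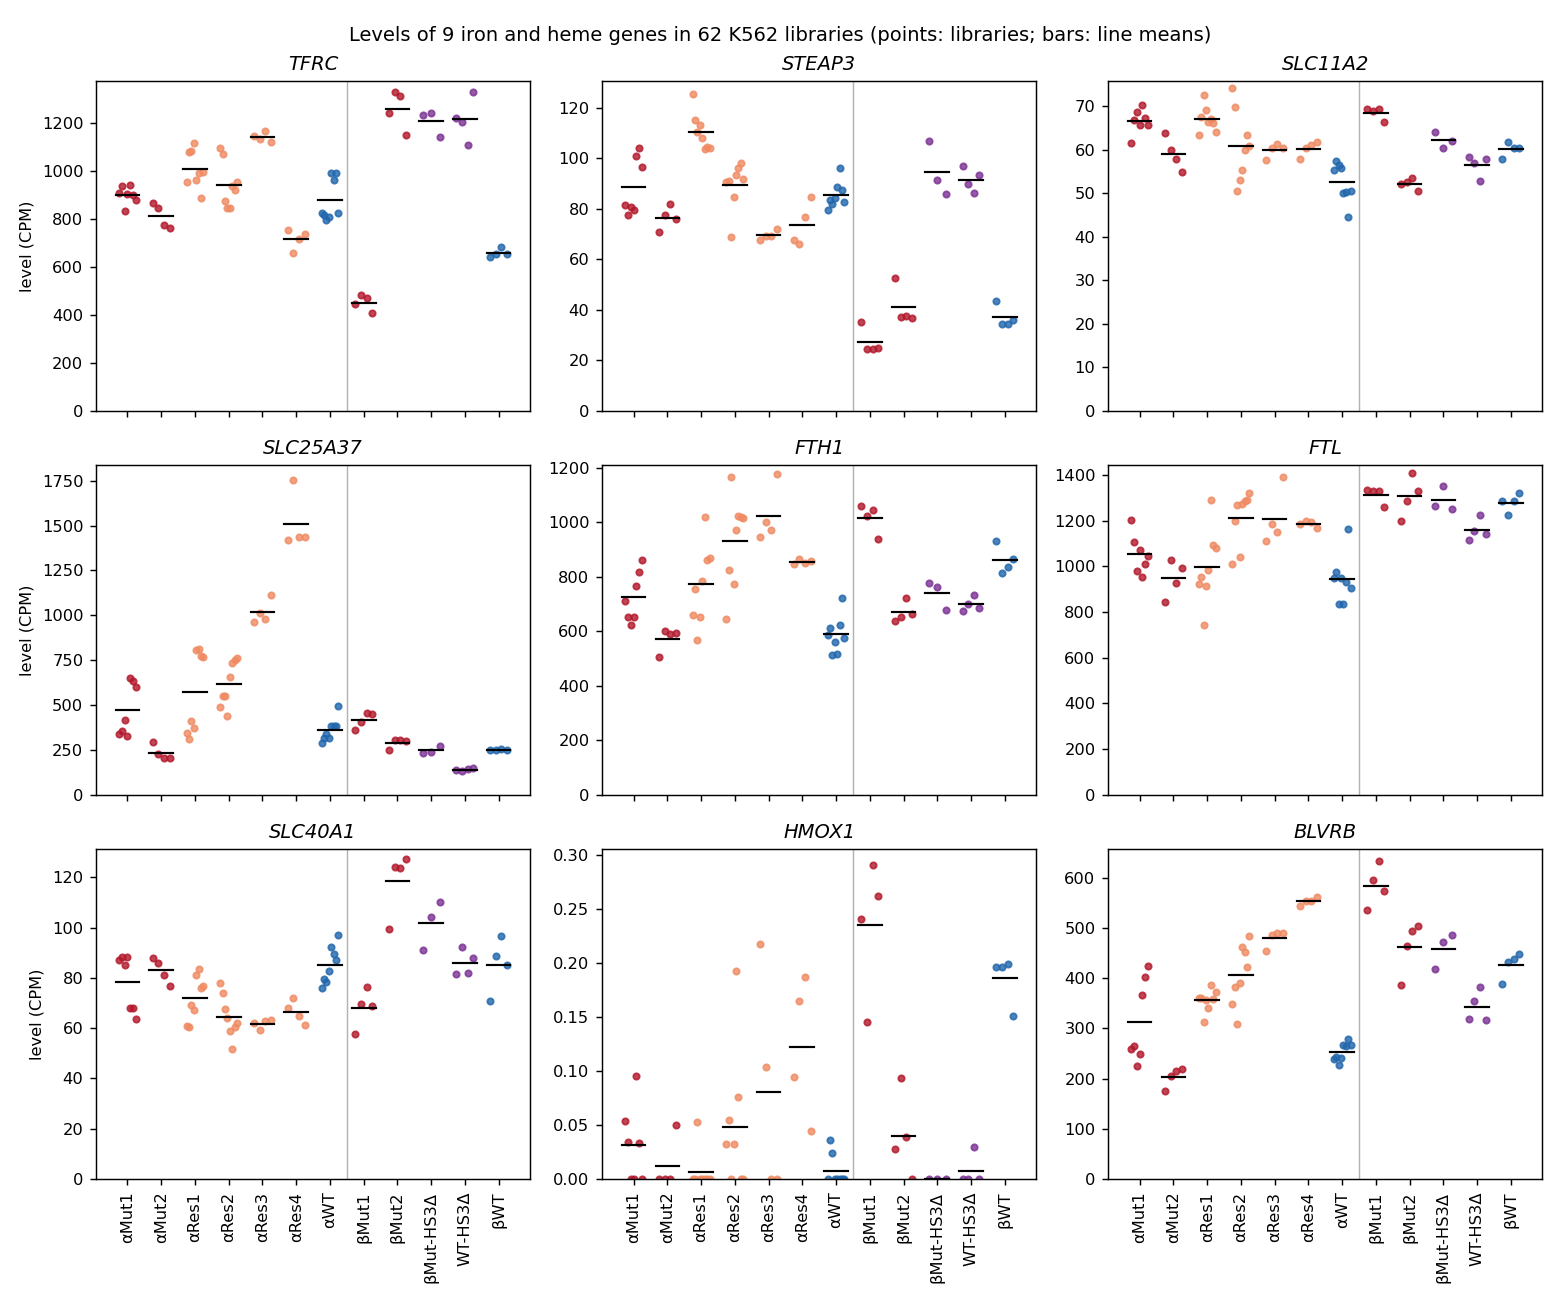
Level of each of the 9 genes (y axis, CPM, each panel from 0) in all 62 libraries, by line (x axis). Points are libraries, black bars line means, red G4 mutant lines, orange rescue lines, purple lines with HS3 deleted and blue unedited lines. SLC25A37 reaches 1418 to 1756 CPM in αRes4 while SLC11A2 stays between 44.5 and 74.3 CPM throughout, and HMOX1 does not pass 0.291 CPM.

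A gene was called when the edgeR quasi-likelihood test gave a Benjamini-Hochberg adjusted p below 0.05 over all genes of the fit and the log2 fold change (log2FC) exceeded 0.5 in size. HMOX1 fell under the minimum mean of 10 counts, so 8 members were tested. The 6 comparisons with αWT share its libraries, as do the 3 with βWT, and the rescue comparisons with αMut1 share that line.

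Against αWT, 0 of the 8 members were called in αMut1, where 22.8% of all tested genes were called. At any size of change, 3 members had an adjusted p below 0.05, as did 43.4% of all genes. A single member, SLC25A37, was called in αMut2, lower, where 16.1% of all genes were called. In αRes1, 1 member was called against 20.4% of all genes. In each of αRes2, αRes3 and αRes4, 3 members were called, all higher and the same ones each time (SLC25A37, FTH1, BLVRB), beside 18.7% of all genes called in αRes2, 39.0% in αRes3 and 40.5% in αRes4. Beside those shares, 3 of 8 is about the background in αRes3 and αRes4, and no count here sets the members apart from other genes. In bulk RNA, a larger share of cells with a transcript and more transcript per cell cannot be told apart. The median log2FC of the 8 members was 0.22 in αMut1, -0.07 in αMut2, 0.37 in αRes1, 0.29 in αRes2, 0.38 in αRes3 and 0.26 in αRes4, where the median of all genes lay between -0.04 and 0.01.

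Against βWT, 2 members were called in βMut1 (SLC25A37 higher, TFRC lower; 20.3% of all genes), 2 in βMut2 (TFRC and SLC40A1, both higher; 28.7% of all genes) and 3 in WT-HS3Δ (TFRC and STEAP3 higher, SLC25A37 lower; 50.2% of all genes). The members' median log2FC was 0.15 in βMut1, 0.16 in βMut2 and -0.07 in WT-HS3Δ, and that of all genes 0.02, 0.00 and -0.03 in the same lines. SLC11A2 and FTL were called in 0 of the 19 contrasts fitted, SLC25A37 in 14.

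**Figure D2:**
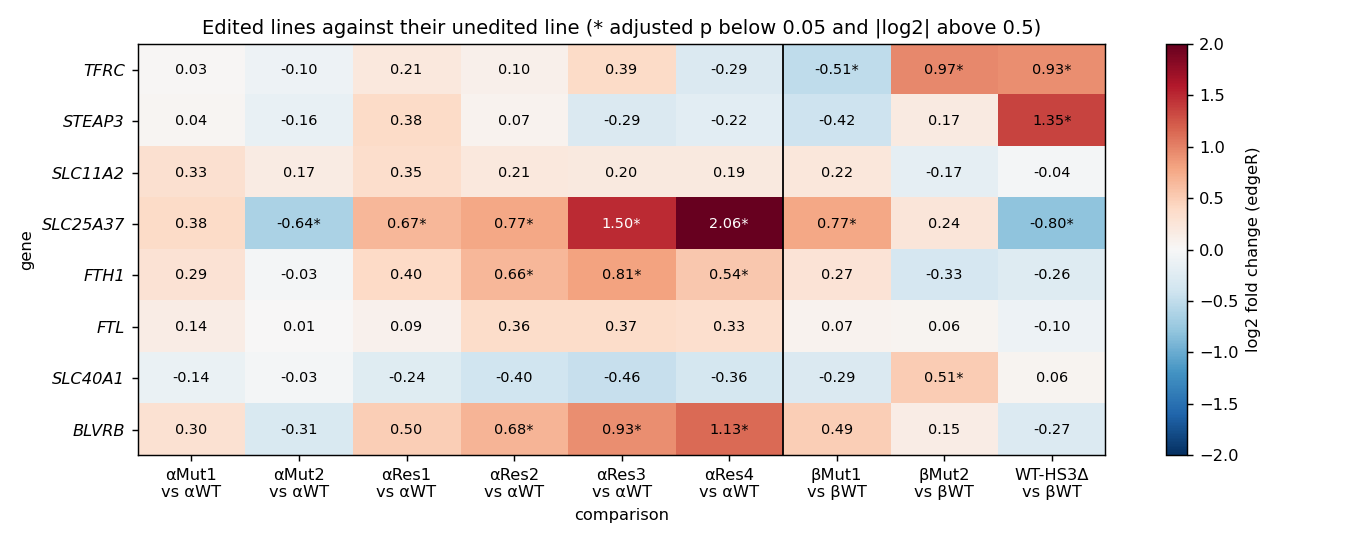
Log2 fold change (colour and number) of the 8 tested members (rows) in each edited line against its unedited line (columns; α series left of the vertical line, β series right of it). An asterisk marks an adjusted p below 0.05 with a log2 change above 0.5 in size. The SLC25A37 row runs from -0.80 in WT-HS3Δ to 2.06 in αRes4, whereas the FTL row stays between -0.10 and 0.37.

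TFRC encodes the transferrin receptor (chromosome 3, 196012511 to 196082153, minus strand). Its largest differences lay in the β series, and the 2 HS2 mutant clones moved in opposite directions. It stood at 444, 482, 469 and 409 CPM in βMut1 and at 1244, 1330, 1314 and 1149 CPM in βMut2, against 642, 653, 683 and 655 CPM in βWT. None of the 3 ranges overlapped, with βMut1 below and βMut2 above the unedited line. The log2FC was -0.51 (SE 0.07, edgeR adjusted p = 2.35e-05) in βMut1 and 0.97 (SE 0.07, edgeR adjusted p = 2.59e-09) in βMut2, and βMut2 differed from βMut1 directly by 1.48 (SE 0.07, edgeR adjusted p = 4.06e-12). The βMut1 value was at the fold threshold: without βMut1 replicate 4 or βWT replicate 3 it was -0.49, past the adjusted p but no longer called.

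The lines with HS3 deleted had high TFRC too. WT-HS3Δ libraries gave 1222, 1206, 1108 and 1330 CPM, all above the βWT libraries, for a log2FC of 0.93 (SE 0.07, edgeR adjusted p = 6.86e-10). In βMut-HS3Δ the receptor stood at 1236, 1245 and 1141 CPM, 1.41 (SE 0.07, edgeR adjusted p = 5.30e-12) above its βMut1 parent on the log2 scale. It did not differ detectably from WT-HS3Δ (log2FC -0.03, 95% interval -0.18 to 0.11). The ranges of βMut2, βMut-HS3Δ and WT-HS3Δ overlapped one another.

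In none of the fitted α contrasts did the TFRC log2FC exceed 0.5 in size. αRes4 was not fitted against αRes3. αRes3 (1121 to 1166 CPM) lay above and αRes4 (658 to 753 CPM) below every αWT library (lowest 797, median 826, highest 993 CPM). Their log2FC was 0.39 (SE 0.07, edgeR adjusted p = 5.61e-06) and -0.29 (SE 0.07, edgeR adjusted p = 4.00e-04), so these 2 clones from 1 parent stood on opposite sides of the unedited line. αMut1 (lowest 834, median 905, highest 942 CPM) overlapped αWT and its log2FC of 0.03 had a 95% interval of -0.09 to 0.14.

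STEAP3, the endosomal reductase that turns transferrin-delivered iron to the ferrous form (chromosome 2, 119223831 to 119265652, plus strand), was lower in the β lines with HS3 intact than in every other line. WT-HS3Δ libraries had 97.0, 89.9, 86.0 and 93.1 CPM, against 43.4, 34.5, 34.4 and 35.8 CPM in βWT. There was no overlap, and the log2FC was 1.35 (SE 0.13, edgeR adjusted p = 1.60e-08). βMut-HS3Δ had 107, 91.5 and 85.6 CPM, against 35.0, 24.4, 24.3 and 24.7 CPM in βMut1, a log2FC of 1.80 (SE 0.14, edgeR adjusted p = 7.65e-10), the largest change of STEAP3 in any of the 19 contrasts. Between the HS2 mutant clones, βMut2 (52.5, 37.2, 37.3 and 36.6 CPM) exceeded βMut1 by 0.59 (SE 0.13, edgeR adjusted p = 7.83e-04), which fell under the fold threshold at 0.45 without βMut2 replicate 1. Number 1 libraries were the highest of their line in all 5 β lines. Without βMut1 replicate 1, STEAP3 was called lower in βMut1 than in βWT (-0.59, against -0.42 with it).

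Among the 11 contrasts of α lines STEAP3 was called in 0. αRes1 had the highest levels (lowest 104, median 109, highest 125.4 CPM), above all αWT libraries (79.4, 83.8 and 96.1 CPM), with a log2FC of 0.38 (SE 0.07, edgeR adjusted p = 2.27e-05). A STEAP3 antisense gene overlaps the locus and the strand setting of the counting is not given in the sources used here, so reads of the 2 genes may not be separable.

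SLC11A2 (chromosome 12, 50979401 to 51028566, minus strand) encodes DMT1, which moves ferrous iron from the endosome to the cytosol. It was the steadiest member. In αMut1 it had a lowest, median and highest level of 61.6, 66.9 and 70.2 CPM, against 44.5, 53.0 and 57.3 CPM in αWT, with no overlap and a log2FC of 0.33 (SE 0.06, edgeR adjusted p = 3.85e-05), below the fold threshold. The 4 rescue clones had log2FC values of 0.19 to 0.35 against αWT, all with an adjusted p below 0.05. Over numbers 1 to 4 alone the log2FC was 0.20 (edgeR adjusted p = 0.0250) in αMut1 and 0.26 (edgeR adjusted p = 8.07e-03) in αRes1. It was 0.14 in αRes2, 0.08 in αRes3 and 0.08 in αRes4, with edgeR adjusted p values of 0.142, 0.354 and 0.329. Unlike those of αWT, the αRes3 and αRes4 libraries had pseudoautosomal counts. They were not fitted against αWT numbers 5 to 8 alone, so equal numbers need not mean matched sets. Over numbers 5 to 8 the log2FC was 0.51 in αMut1, 0.47 in αRes1 and 0.32 in αRes2. αWT averaged 56.2 CPM in numbers 1 to 4 and 48.9 CPM in numbers 5 to 8. Among the β lines βMut1 (69.3, 68.8, 69.2 and 66.2 CPM) lay above and βMut2 (52.1, 52.7, 53.5 and 50.4 CPM) below βWT (57.8, 61.8, 60.4 and 60.3 CPM). The difference between the clones was -0.40 (SE 0.05, edgeR adjusted p = 5.38e-06), opposite in sign to that of TFRC.

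SLC25A37 encodes mitoferrin-1, the carrier that brings iron into mitochondria of developing red cells (chromosome 8, 23528956 to 23575463, plus strand). No other member varied as much. αRes4 had 1418, 1756, 1438 and 1434 CPM and αRes3 964, 1014, 982 and 1114 CPM, against 291, 360 and 495 CPM as lowest, median and highest in αWT. Both clones stood clear of αWT and of each other. The log2FC was 2.06 (SE 0.21, edgeR adjusted p = 1.13e-10) in αRes4 and 1.499 (SE 0.21, edgeR adjusted p = 1.42e-07) in αRes3. Against αMut1, the parent, it was 1.68 (SE 0.22, edgeR adjusted p = 6.79e-08) and 1.12 (SE 0.22, edgeR adjusted p = 1.11e-04) in αRes4 and αRes3. In those contrasts with the parent, 2 members were called in αRes4, SLC25A37 and BLVRB, both higher, beside 32.5% of all genes. In αRes3, 3 members were called, those and FTH1, all higher, beside 20.6% of all genes. The αMut1 libraries had lower means in numbers 1 to 4 than in numbers 5 to 8 for all of these. The means were 361 and 628 CPM for SLC25A37, 250 and 397 CPM for BLVRB and 660 and 815 CPM for FTH1. αRes3 and αRes4 were not fitted against αMut1 numbers 5 to 8 alone. Whether these calls hold against that higher set was therefore not tested.

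αRes2 (lowest 439, median 602, highest 760 CPM) and αRes1 (310, 589 and 813 CPM) were called higher than αWT as well, by 0.77 (SE 0.18, edgeR adjusted p = 8.44e-04) and 0.67 (SE 0.18, edgeR adjusted p = 3.00e-03). Their libraries fell into 2 clusters by replicate number. In αRes1, numbers 5 to 8 had 807, 813, 775 and 768 CPM and numbers 1 to 4 had 347, 310, 410 and 370 CPM. αMut1 split in the same way, with 649, 636 and 599 CPM in numbers 5 to 7 and 340, 356, 417 and 331 CPM in numbers 1 to 4, and αWT did so less, with 381 to 495 CPM in numbers 5 to 8 and 291 to 339 CPM in numbers 1 to 4.

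Within a set of numbers the comparisons therefore read differently. With numbers 1 to 4 alone, the log2FC of SLC25A37 against αWT was 0.17 (SE 0.11, edgeR adjusted p = 0.176) in αMut1, 0.17 (SE 0.11, edgeR adjusted p = 0.233) in αRes1 and 0.66 (SE 0.11, edgeR adjusted p = 8.28e-06) in αRes2. With numbers 5 to 8 it was 0.65 (SE 0.08, edgeR adjusted p = 4.18e-07), 0.98 (SE 0.07, edgeR adjusted p = 8.20e-11) and 0.85 (SE 0.07, edgeR adjusted p = 2.55e-09) in the same lines. The differences between the sets were not tested. The αRes1 call rested on numbers 5 to 8, which in that line are also the libraries with pseudoautosomal counts, unlike the αMut1 and αWT libraries of those numbers. For αRes3 and αRes4 against αWT numbers 1 to 4 the log2FC was 1.68 (SE 0.11) and 2.25 (SE 0.11). These 2 lines also have the pseudoautosomal counts and were not fitted against αWT numbers 5 to 8 alone. Among numbers 5 to 8, 3 members were called in αMut1 against αWT (SLC25A37, SLC11A2 and BLVRB; 24.7% of all genes), against 0 among numbers 1 to 4 (33.6% of all genes). The labels do not say what the numbers stand for.

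**Figure D3:**
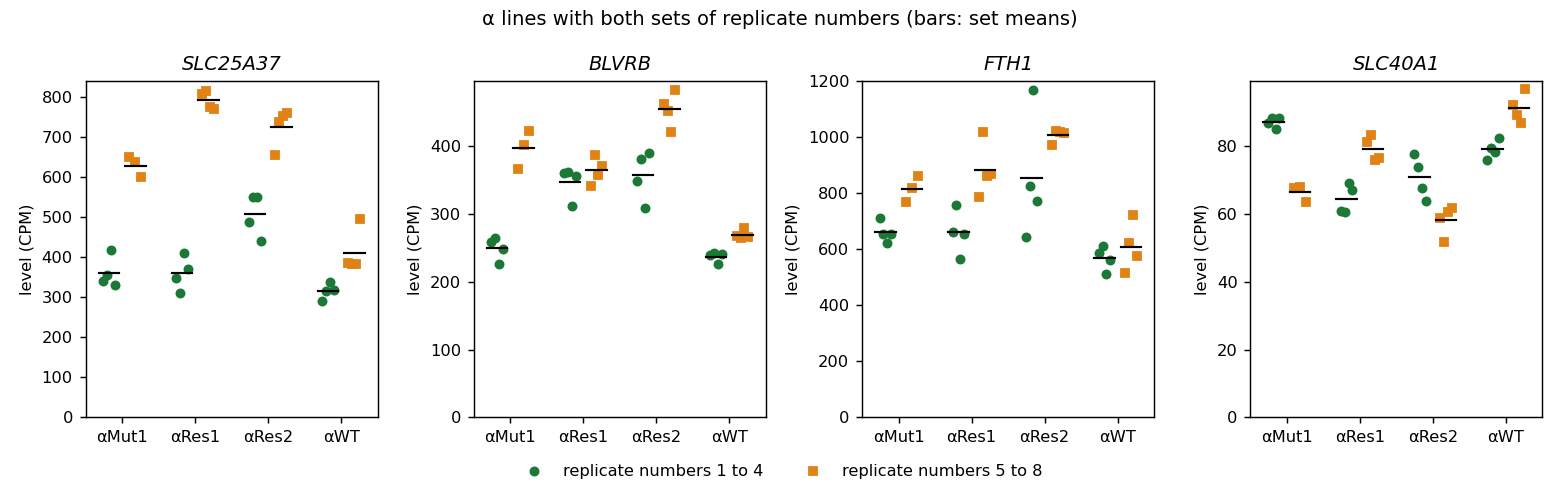
Level (y axis, CPM, from 0) of SLC25A37, BLVRB, FTH1 and SLC40A1 in the 4 α lines that have both sets of replicate numbers (x axis). Green circles are numbers 1 to 4, orange squares numbers 5 to 8 (5 to 7 in αMut1) and black bars set means. SLC25A37 in αMut1 is at 331 to 417 CPM in numbers 1 to 4 and at 599 to 649 CPM in numbers 5 to 7, while SLC40A1 is higher in the first set in αMut1 and αRes2 and higher in the second in αRes1 and αWT.

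The HS-40 mutant clones differed from each other in SLC25A37. αMut2 had 296, 226, 204 and 203 CPM, below every αMut1 library, with a log2FC of -1.02 (SE 0.24, edgeR adjusted p = 9.13e-04) between the clones and of -0.64 (SE 0.11, edgeR adjusted p = 1.21e-05) over numbers 1 to 4 alone. In that contrast 2 members, SLC25A37 and BLVRB, were called, both lower, beside 21.9% of all genes. Against αWT the call of αMut2 was less firm. The log2FC was -0.64 (SE 0.23, edgeR adjusted p = 0.0356), the highest αMut2 library overlapped the lowest αWT library, and the adjusted p rose above 0.05 without αMut2 replicate 2, 3 or 4 or αWT replicate 5 or 8 (-0.62, -0.58, -0.58, -0.63 and -0.56). Over numbers 1 to 4 it was -0.47 (SE 0.11, edgeR adjusted p = 1.14e-03), under the fold threshold.

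SLC25A37 was called in 5 of the 6 comparisons between β lines. βMut1 (360, 406, 455 and 449 CPM) lay above βWT (252, 251, 253 and 253 CPM) by a log2FC of 0.77 (SE 0.09, edgeR adjusted p = 2.27e-06). WT-HS3Δ (137, 132, 144 and 148 CPM) lay below βWT by -0.80 (SE 0.09, edgeR adjusted p = 1.01e-07), the lowest level of any line. βMut-HS3Δ (234, 242 and 270 CPM) was above WT-HS3Δ by 0.80 (SE 0.09, edgeR adjusted p = 1.48e-06) and below βMut1 by -0.76 (SE 0.09, edgeR adjusted p = 6.21e-07). The interaction of the βMut1 mutation with the HS3 deletion on this gene was 0.04 (SE 0.12, 95% interval -0.21 to 0.28). βMut2 (249, 306, 306 and 302 CPM) did not reach the threshold against βWT (log2FC 0.24, SE 0.08, edgeR adjusted p = 0.0249). Against βMut1 it was called lower at -0.53 (SE 0.08, edgeR adjusted p = 4.35e-05), which came under the fold threshold without βMut1 replicate 3 or 4 (-0.47 and -0.498) or βMut2 replicate 1 (-0.46).

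The summed level of the 6 erythroid markers was highest in αRes4 and lowest in αMut2 among the α lines, as was SLC25A37, but the single markers did not all move with it. The sum ranged over 1731 to 1887 CPM in αRes4, 1624 to 1792 CPM in αRes3, 1261 to 1679 CPM in αRes1, 1355 to 1789 CPM in αRes2, 1072 to 1619 CPM in αMut1 and 813 to 935 CPM in αMut2, against 1001 to 1443 CPM in αWT. Among the β lines it was 1534 to 1688 CPM in βMut1, 1407 to 1720.4 CPM in βMut2, 1349.7 to 1364 CPM in βMut-HS3Δ and 1057 to 1159 CPM in WT-HS3Δ, against 1356 to 1447 CPM in βWT. In WT-HS3Δ the sum was low through the γ-globins of the edited locus, HBG1 (162 CPM, against 454 CPM in βWT) and HBG2 (160 CPM, against 404 CPM). The other 4 markers had higher means in WT-HS3Δ than in βWT, opposite to SLC25A37, with GATA1 at 324 CPM, against 272 CPM, and KLF1 at 254 CPM, against 132 CPM. In βMut1, GATA1 (248 CPM), KLF1 (112 CPM) and EPOR (19.2 CPM) had means below those of βWT (272, 132 and 20.1 CPM), although SLC25A37 was higher, and TAL1 had a lower mean in all 6 edited α lines (167 to 196 CPM) than in αWT (203 CPM). None of the 6 markers was at 0 in any line. Their part in the result was not tested.

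Ferritin heavy chain FTH1 (chromosome 11, 61959718 to 61967634, minus strand) was called higher in 3 of the 4 rescue clones. αRes3 had 946, 1002, 973 and 1176 CPM and αRes4 848, 866, 850 and 857 CPM, against 512, 582 and 723 CPM as lowest, median and highest in αWT. The ranges did not overlap, and the log2FC was 0.81 (SE 0.12, edgeR adjusted p = 3.88e-07) in αRes3 and 0.54 (SE 0.12, edgeR adjusted p = 2.36e-04) in αRes4. αRes2 was spread from 645 to 1167 CPM around a median of 993 CPM, with a log2FC of 0.66 (SE 0.10, edgeR adjusted p = 1.86e-06). Its highest library, replicate 3, was also the shallowest of all libraries, with 4270215 gene counts. αRes1 (lowest 567, median 771, highest 1019 CPM) overlapped αWT and was not called, at 0.40 (SE 0.10, edgeR adjusted p = 1.74e-03). Its value was 0.20 (SE 0.11, edgeR adjusted p = 0.185) over numbers 1 to 4 and 0.58 (SE 0.09, edgeR adjusted p = 3.65e-06) over numbers 5 to 8. Without a filter on low counts the αRes4 value was 0.45, under the fold threshold.

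Against their parent αMut1 (lowest 622, median 711, highest 860 CPM), αRes3 was the sole rescue clone in which FTH1 was called, at 0.51 (SE 0.12, edgeR adjusted p = 1.31e-03). That value dropped under 0.5 without αRes3 replicate 4 (0.44) or αMut1 replicate 2, 3 or 4 (0.49, 0.48 and 0.49). It was 0.48 without a count filter or with only the lines compared. αRes3 was not fitted against αMut1 numbers 5 to 8 alone, which averaged 815 CPM, against 660 CPM in numbers 1 to 4. αMut1 itself stood 0.29 (SE 0.10, edgeR adjusted p = 0.0206) above αWT, with overlapping ranges, and αMut2 (505, 601, 592 and 594 CPM) was within the αWT spread (log2FC -0.03, 95% interval -0.28 to 0.21).

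FTH1 separated the HS2 mutant clones. βMut2 had 639, 654, 722 and 663 CPM, against 1058, 1022, 1043 and 937 CPM in βMut1, for a log2FC of -0.61 (SE 0.06, edgeR adjusted p = 2.96e-07). The βWT libraries lay between them at 932, 814, 834 and 865 CPM. The 3 ranges did not overlap, although the lowest βMut1 library was close to the highest βWT library. Against βWT the values were 0.27 (SE 0.06, edgeR adjusted p = 3.22e-03) in βMut1 and -0.33 (SE 0.06, edgeR adjusted p = 3.21e-04) in βMut2, both under the fold threshold.

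FTL, the light chain (chromosome 19, 48965309 to 48966879, plus strand), changed less. The largest log2FC against an unedited line was 0.37 (SE 0.09, edgeR adjusted p = 1.14e-03) in αRes3, with 1112 to 1389 CPM against 833 to 1162 CPM in αWT, the ranges overlapping. αRes2 and αRes4 had 0.36 (SE 0.08, edgeR adjusted p = 3.07e-04) and 0.33 (SE 0.09, edgeR adjusted p = 2.89e-03). In the 3 β comparisons with βWT its log2FC lay between -0.10 and 0.07, none with an adjusted p below 0.05. Unlike that of FTH1, the βMut2 to βMut1 difference of FTL was -0.01 (95% interval -0.12 to 0.10).

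Both ferritin genes have many processed copies, and short reads of a gene and its copies may not be separable. The 25 FTH1 pseudogenes took 18.3% of the counts of gene and pseudogenes together, led by FTH1P7 on chromosome 13 with 81938 counts. The 16 FTL pseudogenes took 21.8%, led by FTLP3 on chromosome 20 with 408967 counts. Per library the share ran from 15.4 to 21.4% for FTH1 and from 18.1 to 24.5% for FTL. With the pseudogene counts added, the FTH1 log2FC was 0.80 in αRes3, 0.54 in αRes4 and 0.62 in αRes2 against αWT and -0.61 in βMut2 against βMut1, all still called, and 0.4981 in αRes3 against αMut1, just under the threshold.

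SLC40A1 (chromosome 2, 189560590 to 189583758, minus strand) encodes ferroportin, the iron exporter. It was higher in βMut2, with 99.5, 124, 124 and 127 CPM, than in βMut1, with 57.5, 69.4, 76.2 and 68.8 CPM, and the ranges did not overlap. The log2FC between them was 0.80 (SE 0.11, edgeR adjusted p = 6.15e-06), and 5 members in all were called in this contrast, beside 25.8% of all genes. βWT libraries, at 70.6, 88.5, 96.8 and 85.0 CPM, lay below every βMut2 library and overlapped βMut1. The βMut2 call against βWT (log2FC 0.51, SE 0.11, edgeR adjusted p = 7.12e-04) sat at the threshold. It was 0.49 under DESeq2 or RLE factors and 0.43 to 0.49 without βMut2 replicate 2, 3 or 4 or βWT replicate 1 or 4. The number 1 library, the highest of its line for STEAP3, was the lowest for SLC40A1 in all 5 β lines.

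In the α series SLC40A1 was below αWT in all 4 rescue clones, by less than the fold threshold. αRes3 had 61.9, 59.2, 62.8 and 63.1 CPM and αRes4 67.9, 72.2, 64.9 and 61.3 CPM, against 75.9, 84.8 and 97.1 CPM as lowest, median and highest in αWT, without overlap. The log2FC was -0.24 (SE 0.07) in αRes1, -0.40 (SE 0.07) in αRes2, -0.46 (SE 0.09) in αRes3 and -0.36 (SE 0.09) in αRes4, with edgeR adjusted p values of 7.89e-03, 3.85e-05, 6.14e-05 and 1.04e-03. In αRes2 the value was -0.18 (SE 0.06) over numbers 1 to 4 and -0.62 (SE 0.06, edgeR adjusted p = 5.63e-09) over numbers 5 to 8, where it was called. αRes3 was called without a count filter, at -0.52. In αMut1, numbers 5 to 7 (67.8, 68.1 and 63.6 CPM) lay below all αWT libraries while numbers 1 to 4 (86.9, 88.3, 85.1 and 88.3 CPM) lay among them. Over all libraries the αMut1 log2FC was -0.14 (95% interval -0.29 to 0.01), and its sign differed between the sets, at 0.11 (SE 0.06, edgeR adjusted p = 0.121) over numbers 1 to 4 and -0.42 (SE 0.06, edgeR adjusted p = 2.63e-06) over numbers 5 to 8.

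HMOX1, the inducible heme oxygenase (chromosome 22, 35380361 to 35394214, plus strand), was close to silent. It received 89 reads in 62 libraries, and 31 libraries had none. Most of these reads came from 2 lines, βMut1 with 26 (4 to 8 per library) and βWT with 21 (4 to 6 per library). βMut2 had 5 reads (0 to 3 per library), WT-HS3Δ 1 and βMut-HS3Δ 0.

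Pooled over the libraries of a line and scaled to total counts alone, HMOX1 was at 0.0406 CPM in βMut2 and 0.00692 CPM in WT-HS3Δ, against 0.179 CPM in βWT. The ratio was 0.226 (exact 95% counting interval 0.0667 to 0.617) in βMut2 and 0.0386 (0.000933 to 0.240) in WT-HS3Δ. βMut-HS3Δ was at least 8.16-fold lower than βMut1, taking 3 reads over the group as the floor, which is 0.0287 CPM (exact permutation p = 0.0571, the smallest that 3 against 4 libraries allow). Every βWT library was above every βMut2 and WT-HS3Δ library. The 2-sided exact permutation p was 0.0286 for each, the smallest that 4 against 4 libraries allow, and 0.105 after Benjamini-Hochberg adjustment over 11 line comparisons of this gene.

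In the α series αRes4 had 10 HMOX1 reads (1 to 4 per library), against 2 in 8 αWT libraries, a ratio of 18.1 (exact 95% counting interval 3.85 to 169; 2-sided exact permutation p = 0.00404, the smallest that 4 against 8 allow; adjusted 0.0444), and αRes3 had 7 reads, 2 of its 4 libraries having none (ratio 13.1, interval 2.49 to 129; exact permutation p = 0.182). Counting intervals cover counting error only, and at these depths a count of 0 over all libraries of a line would allow a level of up to 0.0109 to 0.0409 CPM, depending on the line. The constitutive oxygenase HMOX2 was far more abundant, with line means of 31.2 to 103 CPM.

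BLVRB (chromosome 19, 40447765 to 40465764, minus strand) encodes biliverdin reductase B, also known as flavin reductase of red cells. In αRes4 it had 544, 554, 553 and 562.4 CPM and in αRes3 454, 487, 490 and 490 CPM, against 226, 253 and 279 CPM as lowest, median and highest in αWT. Neither range touched that of αWT. The log2FC was 1.13 (SE 0.12, edgeR adjusted p = 1.34e-10) in αRes4, 0.93 (SE 0.12, edgeR adjusted p = 1.13e-08) in αRes3 and 0.68 (SE 0.10, edgeR adjusted p = 6.26e-07) in αRes2. αRes1 (lowest 312, median 359, highest 386 CPM) was also above every αWT library. Its log2FC of 0.50 (SE 0.10, edgeR adjusted p = 8.61e-05) lay at the threshold and was called under DESeq2 and RLE factors (0.51 each).

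BLVRB in αMut1 split by number like SLC25A37, at 366, 402 and 423 CPM in numbers 5 to 7 and 259, 265, 225 and 249 CPM in numbers 1 to 4. Against αWT the log2FC was 0.60 (SE 0.06, edgeR adjusted p = 3.33e-08) in the higher numbers and 0.05 (SE 0.07, edgeR adjusted p = 0.566) in the lower. αMut2 (176, 205, 215 and 219 CPM) was below every αWT library, with a log2FC of -0.31 (SE 0.12, edgeR adjusted p = 0.0599). It differed from αMut1 by -0.61 (SE 0.13, edgeR adjusted p = 2.96e-04) over all libraries and by -0.30 (SE 0.07, edgeR adjusted p = 7.11e-04) over numbers 1 to 4. Of the β lines, βMut1 (535, 595, 634 and 573 CPM) exceeded βWT (388, 432, 437 and 448 CPM) by 0.49 (SE 0.09, edgeR adjusted p = 4.12e-04), just under the threshold (0.505 without βWT replicate 3), and βMut2 did not differ from βWT detectably (log2FC 0.15, 95% interval -0.03 to 0.32).

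**Figure D4:**
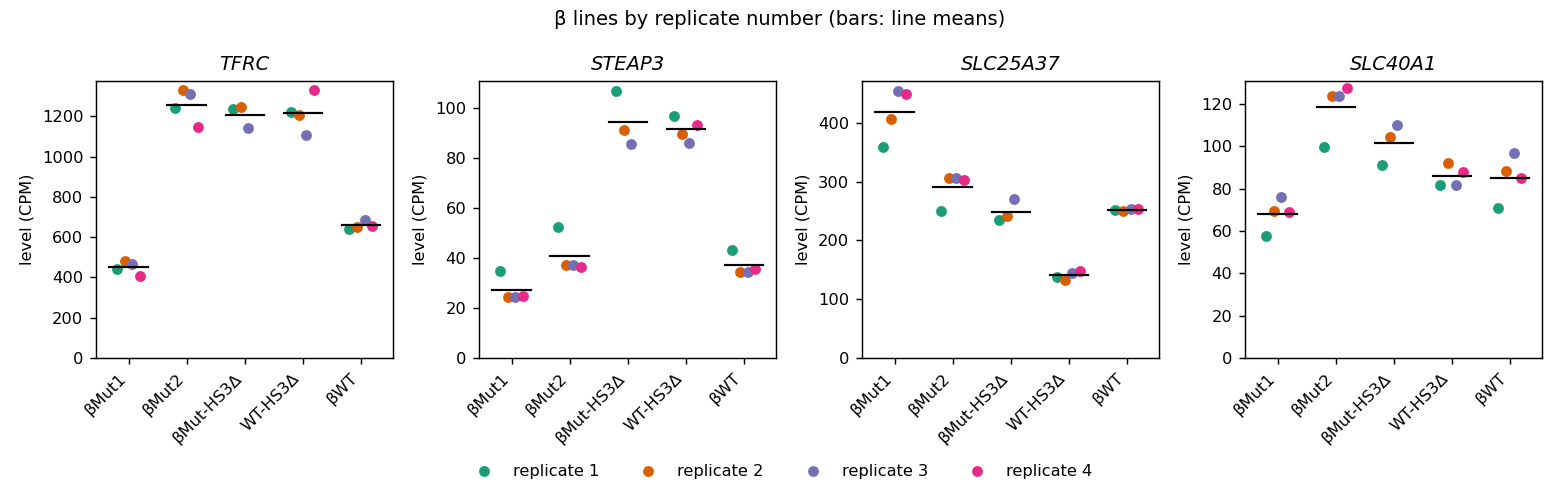
Level (y axis, CPM, from 0) of TFRC, STEAP3, SLC25A37 and SLC40A1 in the 5 β lines (x axis), coloured by replicate number, with line means as black bars. TFRC is at 409 to 482 CPM in βMut1 and 1149 to 1330 CPM in βMut2, against 642 to 683 CPM in βWT, and replicate 1 is the highest library for STEAP3 and the lowest for SLC40A1 in each line.

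Deleting HS3 was compared on both HS2 backgrounds. The STEAP3 mean was 91.5 CPM in WT-HS3Δ and 94.6 CPM in βMut-HS3Δ, against 85.4 CPM in αWT and 37.0 CPM in βWT. TFRC means were 1217 CPM in WT-HS3Δ, 878 CPM in αWT and 658 CPM in βWT. Those of SLC25A37 were 140, 363 and 252 CPM in the same lines. The deletion and any other difference between these lines cannot be told apart. On the βMut1 background 4 members were called in βMut-HS3Δ, TFRC, STEAP3 and SLC40A1 higher and SLC25A37 lower, beside 53.0% of all genes. SLC40A1 and TFRC had the lowest adjusted p values for a difference between the backgrounds. SLC40A1 was 0.57 (SE 0.11, edgeR adjusted p = 2.23e-04) higher in βMut-HS3Δ (91.0, 104 and 110 CPM) than in βMut1, whereas WT-HS3Δ (81.7, 92.1, 81.8 and 87.8 CPM) and βWT differed by 0.06 (95% interval -0.15 to 0.26). The interaction of mutation and deletion was 0.51 (SE 0.16, edgeR adjusted p = 0.0296), the only 1 called of 8 members, where 12.1% of all genes were called. The call was not firm. It fell under the fold threshold without a count filter (0.497), its adjusted p rose to between 0.0567 and 0.0776 without WT-HS3Δ replicate 1 or 3, βMut-HS3Δ replicate 3 or βWT replicate 2 or 3, and its value was 0.47 without βMut1 replicate 1. TFRC had an interaction of 0.48 (SE 0.10) with a lower edgeR adjusted p of 2.63e-03, missing only the fold threshold. It was called with only the lines compared (0.51), and at 0.50 to 0.52 without βMut1 replicate 1 or 2, βMut-HS3Δ replicate 3, WT-HS3Δ replicate 2 or 4 or βWT replicate 4. Between the lines with HS3 deleted, βMut-HS3Δ and WT-HS3Δ, 1 member (SLC25A37, higher) was called, beside 16.3% of all genes.

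Inserting the MYC G4 into αMut1 cells left the members of 2 clones under the threshold. Against αMut1, 0 of 8 were called in αRes1 (2.96% of all genes) and 0 of 8 in αRes2 (8.96% of all genes). The adjusted p was below 0.05 for 1 member in αRes1 (STEAP3, log2FC 0.34, SE 0.07; 5.05% of all genes) and for 3 in αRes2 (FTH1 0.37, SE 0.10; SLC40A1 -0.26, SE 0.08; BLVRB 0.39, SE 0.10; 18.9% of all genes). DESeq2 also called 0 in both. αRes1 and αMut1 libraries with numbers 1 to 4 alone gave 1 call, STEAP3 at 0.55 (SE 0.07, edgeR adjusted p = 7.26e-08), beside 29.5% of all genes, and those of αRes2 gave BLVRB at 0.52 (SE 0.07, edgeR adjusted p = 5.44e-07), beside 17.3%. SLC40A1 in αRes1 against αMut1 had opposite signs in the sets, at -0.43 (SE 0.06, edgeR adjusted p = 1.32e-06) over numbers 1 to 4 and 0.26 (SE 0.06, edgeR adjusted p = 1.16e-03) over numbers 5 to 8, and -0.11 (SE 0.08) over all libraries.

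The 2 unedited controls were themselves different. αWT had higher STEAP3 (log2FC 1.19, SE 0.08, edgeR adjusted p = 1.11e-08) and SLC25A37 (0.51, SE 0.11, edgeR adjusted p = 1.19e-03) than βWT, and lower FTH1 (-0.57, SE 0.08, edgeR adjusted p = 3.78e-05) and BLVRB (-0.77, SE 0.06, edgeR adjusted p = 1.39e-07). These were 4 of 8 members, beside 48.1% of all genes. αWT cells had 79.4, 83.8 and 96.1 CPM of STEAP3 as lowest, median and highest, against 34.4 to 43.4 CPM in βWT. The SLC25A37 call was not firm. Its value was 0.32 (SE 0.05) with the αWT libraries of numbers 1 to 4, 0.68 with those of numbers 5 to 8 and 0.32 (SE 0.06) with the replicate number as a block, and it was under 0.5 without αWT replicate 7 or 8 or βWT replicate 2 (0.496, 0.44 and 0.497) or without a count filter (0.4987). The value of FTH1 was -0.497 with pseudogene counts added.

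Lists of other iron and heme genes were counted in the same fits. In the transferrin cycle and iron regulatory list, 14 of 17 genes were tested, and per comparison with an unedited line 0 to 3 were called higher and 0 to 3 lower. In those comparisons 16.1 to 50.2% of all genes were called in either direction, a background that holds for each list. TF, which encodes transferrin itself, was higher in αMut1 (log2FC 2.39, SE 0.27) and in all 4 rescue clones (2.44 to 3.58) but not in αMut2 (-0.11). Among β lines it was lower in WT-HS3Δ (-3.66, SE 0.15) and βMut2 (-1.66, SE 0.13) and higher in βMut1 (0.76, SE 0.12). Its line means ran from 1.505 CPM in WT-HS3Δ to 32.6 CPM in βMut1. TF varied widely between αRes1 libraries, at a mean of 17.5 CPM (SD 11.8). HFE, a partner of the transferrin receptor, was higher in both HS-40 mutant clones (1.06, SE 0.17 in αMut1 and 0.83, SE 0.19 in αMut2) and lower in αRes4 (-1.06, SE 0.22). STEAP1, a relative of STEAP3, was lower in αRes3 (-3.40, SE 0.26) and αMut2 (-0.97, SE 0.20) and higher in βMut1 (1.32, SE 0.19) and WT-HS3Δ (0.90, SE 0.19).

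Of 6 export genes, 2 were tested. HAMP, which encodes hepcidin, the hormone that removes ferroportin from the cell surface, was higher in all 4 rescue clones, from 1.04 (SE 0.41, edgeR adjusted p = 0.0423) in αRes1 to 3.48 (SE 0.45, edgeR adjusted p = 2.38e-08) in αRes4. It was higher in βMut1 (1.04, SE 0.22) and lower in WT-HS3Δ (-2.84, SE 0.34). Line means were low, at 0.115 to 6.31 CPM. The αRes1 call was lost without any of αRes1 replicates 1 to 4 or αWT replicates 5 to 8 (adjusted p 0.0598 to 0.0898), with the replicate number as a block (0.0530) and without a count filter (0.0632), and over numbers 5 to 8 the value was 0.66 (edgeR adjusted p = 0.0730). HEPH, the ferroxidase that works beside ferroportin, was lower in αRes1 (-0.70, SE 0.07), αRes4 (-0.63, SE 0.09), βMut2 (-0.72, SE 0.11) and WT-HS3Δ (-0.84, SE 0.11).

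Of 8 mitochondrial iron and iron-sulfur cluster genes, 7 were tested, and 0 to 2 were called higher and 0 to 1 lower per comparison with an unedited line. HSCB, an iron-sulfur cochaperone, was higher in βMut1 (0.78, SE 0.21) and βMut2 (0.73, SE 0.21) and lower in αRes1 (-0.62, SE 0.11).

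For heme transport and breakdown, 9 of 12 genes were tested and 0 to 4 were called in each direction. ABCG2, a transporter of porphyrins and drugs, had the largest change of the named list genes. It was higher in αMut1 (3.71, SE 0.40), αMut2 (1.93, SE 0.46) and αRes1 to αRes4 (4.03 to 6.31), with a line mean of 26.8 CPM in αRes3, against 0.337 CPM in αWT. Of the β lines, βMut1 had a higher level (1.88, SE 0.29) and βMut2 a lower one (-1.66, SE 0.47). HMOX2 was lower in αMut1 (-0.84, SE 0.13) and in all 4 rescue clones (-0.63 to -1.27) and higher in WT-HS3Δ (1.02, SE 0.11), and over numbers 1 to 4 its αRes1 value was -0.36, under the threshold. BLVRA, the other biliverdin reductase, was higher in αMut1 (0.92, SE 0.15), αMut2 (1.34, SE 0.17) and αRes1 to αRes3 (0.62 to 0.96) and lower in WT-HS3Δ (-0.70, SE 0.07). LRP1, a receptor for hemopexin-bound heme, was higher in αMut1 (2.16, SE 0.40), αRes1 (2.19, SE 0.40), αRes2 (1.02, SE 0.41) and αRes4 (2.86, SE 0.45) and lower in βMut2 (-0.81, SE 0.30) and WT-HS3Δ (-2.73, SE 0.37). αRes1 libraries varied widely in ABCG2 (mean 5.66 CPM, SD 4.56) and LRP1 (mean 7.25 CPM, SD 6.61).

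BACH1 and NRF2 repress and activate ferritin, ferroportin, heme oxygenase and biliverdin reductase genes in many cells, and all 12 genes of their list were tested. In the α comparisons with αWT, 0 to 2 were called higher and 0 to 4 lower. NQO1, an NRF2 target, was lower in all 4 rescue clones (-0.73, -0.73, -1.09 and -0.88 in αRes1 to αRes4, SE 0.12 to 0.15). It was higher in βMut2 (0.76, SE 0.10). Over numbers 1 to 4 its log2FC was -0.33 in αRes1 and -0.45 in αRes2, under the threshold. In WT-HS3Δ 5 were higher, NQO1 (1.04, SE 0.10) and KEAP1 (1.14, SE 0.12) among them, and 2 lower, with SLC7A11, the cystine importer, at -2.92 (SE 0.08).

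Heme synthesis enzymes, with the heme-regulated kinase EIF2AK1, gave 10 tested genes. Of these, 7 were called higher in αRes1, 7 in αRes2, 7 in αRes3 and 5 in αRes4, 4 in αMut1 and 0 in αMut2, with 1 called lower in αRes4, beside 20.4%, 18.7%, 39.0%, 40.5%, 22.8% and 16.1% of all genes in the same order of lines. Their median log2FC was 0.53, 0.64, 0.88 and 0.52 in αRes1 to αRes4, 0.37 in αMut1 and -0.15 in αMut2. ALAS2, the erythroid enzyme of the initial step, whose transcript also carries an iron-responsive element, was higher in αRes1 to αRes4 (1.43 to 2.56) and βMut1 (1.62, SE 0.06). FECH, which inserts iron into the porphyrin, was higher in αRes1 (0.53, SE 0.06), αRes2 (0.55, SE 0.06) and αRes3 (1.30, SE 0.07), and stood at -0.27 (SE 0.07) in αRes4. UROS and PPOX were higher in all 4 rescue clones, at 0.83 to 1.27 and 0.73 to 1.00. Their parent αMut1 also had higher means than αWT for these genes and for ALAS2. ALAS2 averaged 271 CPM in αMut1, against 118 CPM in αWT. UROS averaged 65.6 CPM, against 38.1 CPM, and PPOX 66.9 CPM (SD 34.3), against 45.8 CPM. In αMut2 the means of ALAS2, UROS and PPOX were 103, 35.4 and 35.1 CPM. αRes1 libraries varied widely in ALAS2 (mean 343 CPM, SD 139) and UROS (mean 68.7 CPM, SD 18.8). CPOX was higher in αRes1 (0.52, SE 0.10) and lower in WT-HS3Δ (-1.15, SE 0.09).

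**Figure D5:**
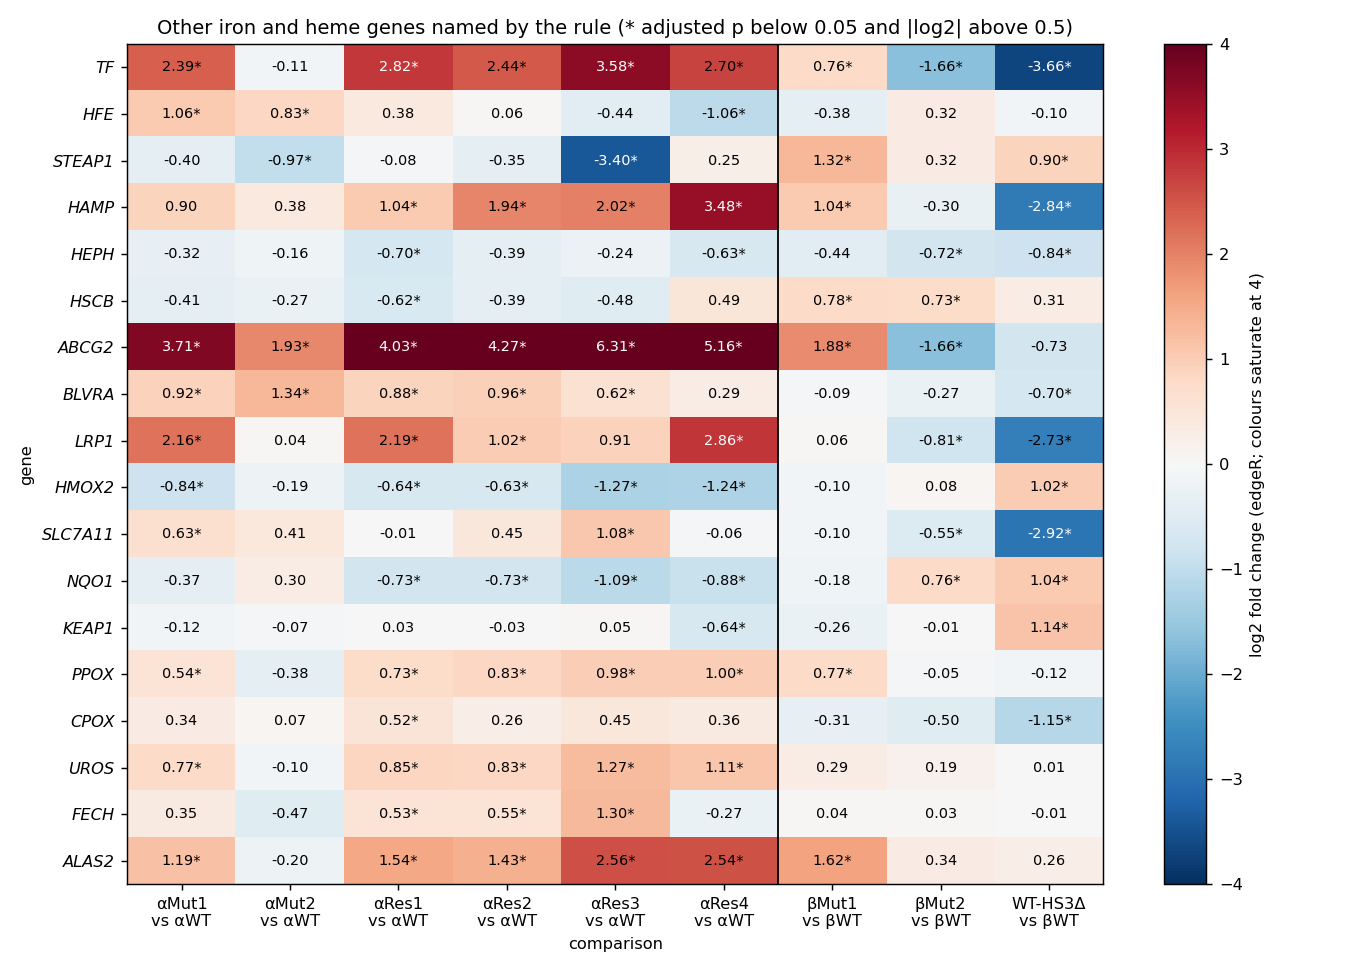
Log2 fold change (colour and number) of 18 other iron and heme genes named by the rule (rows) in each edited line against its unedited line (columns), with asterisks as in the plot of member changes. ABCG2 and ALAS2 are positive in αMut1 and in all 4 rescue clones, and TF runs from 3.58 in αRes3 to -3.66 in WT-HS3Δ.

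The pattern of each member over the 12 line means of log2(CPM + 1) was set beside that of 16993 genes tested in both series. The gene most like SLC25A37 was RIPOR3 (Pearson r = 0.99), the gene most like STEAP3 was the pseudogene STIP1P3 (r = 0.98) and that most like FTH1 was its own pseudogene FTH1P2 (r = 0.98), which can share its reads. BLVRB was most like RPSAP19 (r = 0.97), FTL most like H2BC4 (r = 0.96), SLC40A1 most like SPTLC1P1 (r = 0.93), TFRC most like BST2 (r = 0.91) and SLC11A2 most like GFY (r = 0.87). Among the members themselves the closest pairs were FTL with BLVRB (r = 0.86) and FTH1 with BLVRB (r = 0.80), and the most opposed were SLC25A37 with SLC40A1 (r = -0.70) and FTH1 with SLC40A1 (r = -0.65). TFRC and FTH1 gave r = -0.36. These correlations describe 12 points that include lines derived from one another and were chosen as extremes of many, and they carry no test.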

How the data were processed

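RNA was read as poly(A)-selected paired-end libraries. Per the methods and the labels, the authors trimmed reads with cutadapt, aligned them to hg38 with BWA, handled them with SAMtools 1.15.1 and deposited raw counts per gene (featureCounts, GENCODE 42). How strand and multi-mapping reads were handled is not given in the sources used here. Symbols, positions and transcripts came from GENCODE 44 on hg38, which matched 62625 of 62696 gene identifiers without version.

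Genes averaging 10 or more counts over the libraries of a fit were kept and fitted with the quasi-likelihood test of edgeR 4.0.16 (R 4.3.3, TMM factors), separately for the α lines (18247 genes), the β lines (17535 genes) and αWT with βWT (18196 genes). Adjusted p values are Benjamini-Hochberg over all genes of a contrast. SE is the log2FC divided by the square root of F and 95% intervals are normal intervals from it. CPM values used 1 TMM scaling over all 62 libraries. The alternatives were DESeq2 1.42.0, RLE factors, no count filter, a replicate block, fits of the compared lines only, sets of replicate numbers, each library left out, and ferritin pseudogenes added. Library totals without TMM were added after seeing the data. Scripts were tested on simulated data.

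The members and lists were chosen with earlier results of these data known. Named were all members, HBA1 and HBE1, the gene most like each member, list genes called alike in both αMut, both βMut or all 4 αRes clones, the 2 largest called per list and series, and the most counted ferritin pseudogenes. Some list and marker genes are not reported here and were left out of the counts and sums. Same-numbered libraries deviated together with r above 0.1 in every pair only for αRes2 with αMut1 (r 0.12 to 0.26) and βMut2 with βMut1 (r 0.13 to 0.76). Every pair was also positive for αMut1 (0.057 to 0.30) and αRes1 (0.097 to 0.28) with αWT. The same held for βMut1 (0.076 to 0.55) and βMut2 (0.089 to 0.51) with βWT. It held too for βMut-HS3Δ with βMut1 (0.085 to 0.58) and with WT-HS3Δ (0.061 to 0.30). Nothing says that replicates came from separate cultures, so p values measure the spread between these libraries.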

Additional observations from a re-analysis of the deposited data

Results flagged for a closer look

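Within lines of 4 to 8 libraries, 13 of 88 gene and line groups had a library set apart from the rest by its gap, where chance gives about 1 in 20. For STEAP3 these were αRes2 replicate 3 at 68.6 CPM, βMut1 replicate 1 at 35.0 CPM, βMut2 replicate 1 at 52.5 CPM and βWT replicate 1 at 43.4 CPM. For SLC25A37 they were αRes4 replicate 2 at 1756 CPM, αWT replicate 8 at 495 CPM and βMut2 replicate 1 at 249 CPM. FTL stood apart in αWT replicate 7 (1162 CPM) and βMut1 replicate 4 (1258 CPM). FTH1 did so in αMut2 replicate 1 (505 CPM), SLC11A2 in βMut1 replicate 4 (66.2 CPM), SLC40A1 in βMut2 replicate 1 (99.5 CPM) and BLVRB in αRes3 replicate 1 (454 CPM).

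Clones with the same enhancer edited differed in the test of their difference. Between αMut2 and αMut1 the log2FC was -1.02 for SLC25A37 and -0.61 for BLVRB over all libraries. αMut2 has numbers 1 to 4 only, and within those the values were -0.64 and, no longer called, -0.30. Between βMut2 and βMut1 it was 1.48 for TFRC, 0.59 for STEAP3, 0.80 for SLC40A1, -0.53 for SLC25A37 and -0.61 for FTH1. For the deletion of HS3 on the 2 HS2 backgrounds, SLC40A1 had an interaction of 0.51 (edgeR adjusted p = 0.0296), which missed a threshold without any of 6 libraries or without a count filter, and TFRC one of 0.48 (edgeR adjusted p = 2.63e-03), under the fold threshold.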

How the results depend on the processing

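No called change of a member or named list gene reversed direction under any alternative run, but values that were not called changed sign between number sets, as for SLC40A1 in αRes1 against αMut1 (-0.43 with numbers 1 to 4 and 0.26 with numbers 5 to 8). The number of members called, of 8, moved as follows. With numbers 1 to 4 only it was 0 in αMut2 against αWT (1 with all libraries), 1 in αMut2 against αMut1 (2), and 1 in each of αRes1 and αRes2 against αMut1 (0), and with numbers 5 to 8 only it was 3 in αMut1 (0) and 2 in αRes1 (1) against αWT. With the replicate number as a block it was 0 in αMut2 against αWT, where SLC25A37 stood at -0.28 (edgeR adjusted p = 0.135), 1 in αMut2 against αMut1 and 2 in αRes1 against αWT. The block changed no call in αRes2 against αMut1 or in βMut2 against βMut1. RLE factors, DESeq2 and a fit of the compared lines only gave 2 in αRes1 against αWT. RLE factors, DESeq2 and library totals gave 1 in βMut2 against βWT (2). The interaction had 0 without a count filter and 2 with only the lines compared (1).

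Leaving out each library in turn gave 0 to 1 in αMut2 and 1 to 2 in αRes1 against αWT, 2 to 3 in αRes3 against αMut1, 1 to 3 in βMut1 and 1 to 2 in βMut2 against βWT, 3 to 5 in βMut2 and 4 to 5 in βMut-HS3Δ against βMut1, 0 to 2 for the interaction and 3 to 4 in αWT against βWT. Counts over all genes moved by more than 1.5 times in αRes1 against αMut1 (541; 252 with only the lines compared, 5414 and 3953 by number set), αRes2 against αMut1 (1635; 3177 for numbers 1 to 4), αRes3 against αMut1 (3759; 5766) and αRes1 against αWT (3731; 6680 for numbers 5 to 8). Without TMM the median of all genes shifted by 0.13 in αRes4 against αWT, -0.12 in WT-HS3Δ against βWT and -0.11 in βMut-HS3Δ against βMut1. Depth limits HMOX1 alone among the members. Each edit is seen in 1 to 4 clones, and short reads may not separate ferritin genes from their copies.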
